A study of Homo sapiens with 6 samples.

Results

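The malate-aspartate and glycerol phosphate shuttles were examined as 10 genes, GOT1, GOT2, MDH1, MDH2, SLC25A11, SLC25A12, SLC25A13, GPD1, GPD1L and GPD2, in PC3, an established line of human prostate cancer cells. Every bead array probe annotated to these symbols was taken. The annotation used here gives a single gene to 13977 of the array's 47231 probes, and 9 of these named a member, 1 for each of 9 genes. None named GPD1, for which no value is given. Whether probes without a name in the annotation read GPD1 or other members was not analysed here. A probe was tested when its detection p, its rank against the negative controls of the same array, was under 0.01 on at least 3 of the 6 arrays. That kept 8 of the 10 genes, among 9841 genes tested, and left GPD2 out with 2 arrays. All 8 tested members were detected on all 6 arrays, so none entered through 1 group alone.

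The cells carried a construct for doxycycline-driven expression of PGC1A, the coactivator encoded by PPARGC1A. The groups are P_DOX, given doxycycline for 2 passages (3 arrays), and M_DOX, the same cells without doxycycline (3 arrays). Doxycycline was not analysed here in cells without the construct, so effects of the drug and of the coactivator cannot be told apart. No source used here tells whether replicates came from separate cultures or whether the line is a single clone. The p-values therefore cover the spread among these arrays alone, which may be technical. Each array held bulk RNA, so more RNA per cell and more cells carrying it cannot be told apart either. The array's probe of PPARGC1A did not show the induction: its log2 signal lay close to background, at 5.36 ± 0.33 in P_DOX and 5.32 ± 0.34 in M_DOX (SD, n = 3 each, limma adjusted p = 0.951), and whether it reads the construct was not analysed here. P_DOX replicate 2 stood apart on the first principal component (35.3% of the variance), with a score of -20.1, while the scores of the other 5 ran from -2.89 to 11.1. Without it GOT1 kept its call (log2 fold change 1.05, adjusted p = 0.0354) and MDH1 was at 0.45 (adjusted p = 0.11).

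NADH made in the cytosol by glycolysis cannot cross the inner mitochondrial membrane, and the shuttles carry its electrons across in other molecules. In the malate-aspartate shuttle, cytosolic malate dehydrogenase (MDH1) turns oxaloacetate and NADH into malate, the oxoglutarate-malate carrier (SLC25A11) brings the malate in, and mitochondrial malate dehydrogenase (MDH2) releases the NADH inside. The aspartate aminotransferases GOT2 and GOT1 convert between oxaloacetate and aspartate on either side, and the aspartate-glutamate carriers SLC25A12 (aralar) and SLC25A13 (citrin) export the aspartate. In the glycerol phosphate shuttle, GPD1 or its relative GPD1L reduces dihydroxyacetone phosphate with NADH, and GPD2 on the inner membrane passes the electrons to ubiquinone.

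With doxycycline the cytosolic aminotransferase GOT1 rose 2.06-fold, and it was the only member to pass the threshold, a Benjamini-Hochberg adjusted p under 0.05 in limma over all genes. Of the 8 tested members 1 was called higher and 0 lower, where 0.437% of all tested genes were called higher and 0.102% lower. MDH1, the carriers SLC25A12 and SLC25A11 and the mitochondrial GOT2 lay higher in every P_DOX array than in any M_DOX array without passing. The mitochondrial enzymes GOT2 and MDH2 showed smaller differences than GOT1 and MDH1, and the cytosolic GPD1L the smallest. The 95% intervals of GPD1L, GOT2, MDH2 and SLC25A13 spanned 0 in this fit, which did not pair arrays by replicate number. With the replicate number as a block the limma adjusted p was 0.0545 for MDH1, 0.0656 for SLC25A12, 0.0669 for SLC25A11 and 0.142 for SLC25A13. It was 0.19 for GOT2, 0.367 for MDH2 and 0.939 for GPD1L, so GOT1 alone passed there too. The log2 change was above 0 in 8 of 8 members, against 43.4% of all tested genes, with a median of 0.29 against -0.03, and in 7 of 8 with array weights or without P_DOX replicate 2, M_DOX replicate 1 or M_DOX replicate 2, where GPD1L was below 0. At an unadjusted p under 0.05 there were 4 members, against 14.7% of all tested genes. The P_DOX arrays lay wholly above the M_DOX arrays in 5 of 8 members, against 10.2% of all tested genes.

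GOT1, the cytosolic aspartate aminotransferase, had log2 signals of 11.71, 11.55 and 11.48 in P_DOX replicates 1 to 3, against 10.55, 10.55 and 10.51 in M_DOX replicates 1 to 3. The groups stood far apart and the M_DOX arrays lay within a few hundredths of each other. The means were 11.58 ± 0.12 in P_DOX and 10.54 ± 0.025 in M_DOX (SD, n = 3 each). The log2 fold change was 1.04 (SE 0.0871, 95% interval 0.84 to 1.24, limma adjusted p = 0.0127). It ranked 8 by size of rise and 2 by p among the 9841 genes. The call was lost without M_DOX replicate 2 (adjusted p = 0.0896) or M_DOX replicate 3 (adjusted p = 0.109), where the change was 1.05 and 1.03. In the deposited intensities, before any correction, the probe read 3360.3, 2976 and 2612 in P_DOX, against 1551, 1622 and 1637 in M_DOX.

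MDH1, the cytosolic malate dehydrogenase, had log2 signals of 12.58, 12.54 and 12.56 in P_DOX, against 12.11, 12.21 and 12.02 in M_DOX. The groups did not overlap. The log2 fold change was 0.44 (SE 0.0824, 95% interval 0.25 to 0.63), or 1.36-fold, and it missed the threshold (limma adjusted p = 0.0761). It passed on the deposited table (0.44, adjusted p = 0.0308), without background correction (the same to these digits), with an offset of 50 (adjusted p = 0.0342), with a variance trend (adjusted p = 0.0159) and with array weights (adjusted p = 0.0309). GPD1L, related to the cytosolic glycerol 3-phosphate dehydrogenase, had 11.24, 11.35 and 11.26 in P_DOX, against 11.19, 11.23 and 11.40 in M_DOX. Its groups overlapped and the highest array was an M_DOX one. The change on the log2 scale was 0.012 (SE 0.0881, 95% interval -0.19 to 0.22, adjusted p = 0.961).

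Among the mitochondrial enzymes, GOT2, which makes the aspartate that leaves the matrix, had 12.89, 12.78 and 12.80 in P_DOX, against 12.68, 12.57 and 12.69 in M_DOX. The groups did not overlap, by a narrow margin. The log2 fold change was 0.18 (SE 0.0805, 95% interval -0.0068 to 0.37, adjusted p = 0.361). MDH2, shared with the tricarboxylic acid cycle, had 13.39, 13.43 and 13.31 in P_DOX, against 13.34, 13.13 and 13.26 in M_DOX. Its groups overlapped, at a log2 fold change of 0.13 (SE 0.0874, 95% interval -0.068 to 0.34, adjusted p = 0.524).

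GPD2, the ubiquinone-linked glycerol 3-phosphate dehydrogenase, lay at the edge of background. It was detected on 2 of 3 P_DOX arrays and 0 of 3 M_DOX arrays. Its deposited intensities were 80.5, 69.3 and 82.8 in P_DOX, against 74.5, 80.9 and 76.0 in M_DOX, and the groups overlapped. These do not compare directly, since the lowest detected intensity of an array ran from 70.1 to 74.2 in P_DOX and from 77.7 to 82.2 in M_DOX. The mean log2 signal of GPD2 was 5.30 in P_DOX and a measured 5.04 in M_DOX. Its P_DOX replicate 2, at 4.97, lay below every M_DOX array, so no fold is given. GPD2 was not tested among the genes. In a fit over all 47231 probes it did not pass (limma adjusted p = 0.619), and its M_DOX values there lay below detection. With no value for GPD1, the glycerol phosphate shuttle is known here from GPD1L alone.

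The carriers showed intermediate differences. SLC25A11, the oxoglutarate-malate carrier, had 8.42, 8.43 and 8.29 in P_DOX, against 8.16, 7.997 and 7.81 in M_DOX. The groups did not overlap, and the M_DOX arrays spread the wider. The log2 fold change was 0.39 (SE 0.106, 95% interval 0.15 to 0.64, adjusted p = 0.167). SLC25A12, the calcium-regulated carrier aralar, had 7.98, 8.06 and 7.98 in P_DOX, against 7.595, 7.65 and 7.68 in M_DOX. Its groups did not overlap and its spread within groups was small: 3.80% of tested genes varied less. The log2 fold change was 0.36 (SE 0.0762, 95% interval 0.19 to 0.54, adjusted p = 0.109), and it passed with array weights (0.34, adjusted p = 0.0453). SLC25A13, citrin, had 7.66, 7.47 and 7.67 in P_DOX, against 7.40, 7.24 and 7.52 in M_DOX. Replicate 2 was the lowest in both groups, the groups overlapped, and the log2 fold change was 0.22 (SE 0.103, 95% interval -0.022 to 0.46, adjusted p = 0.383).

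**Figure D1:**
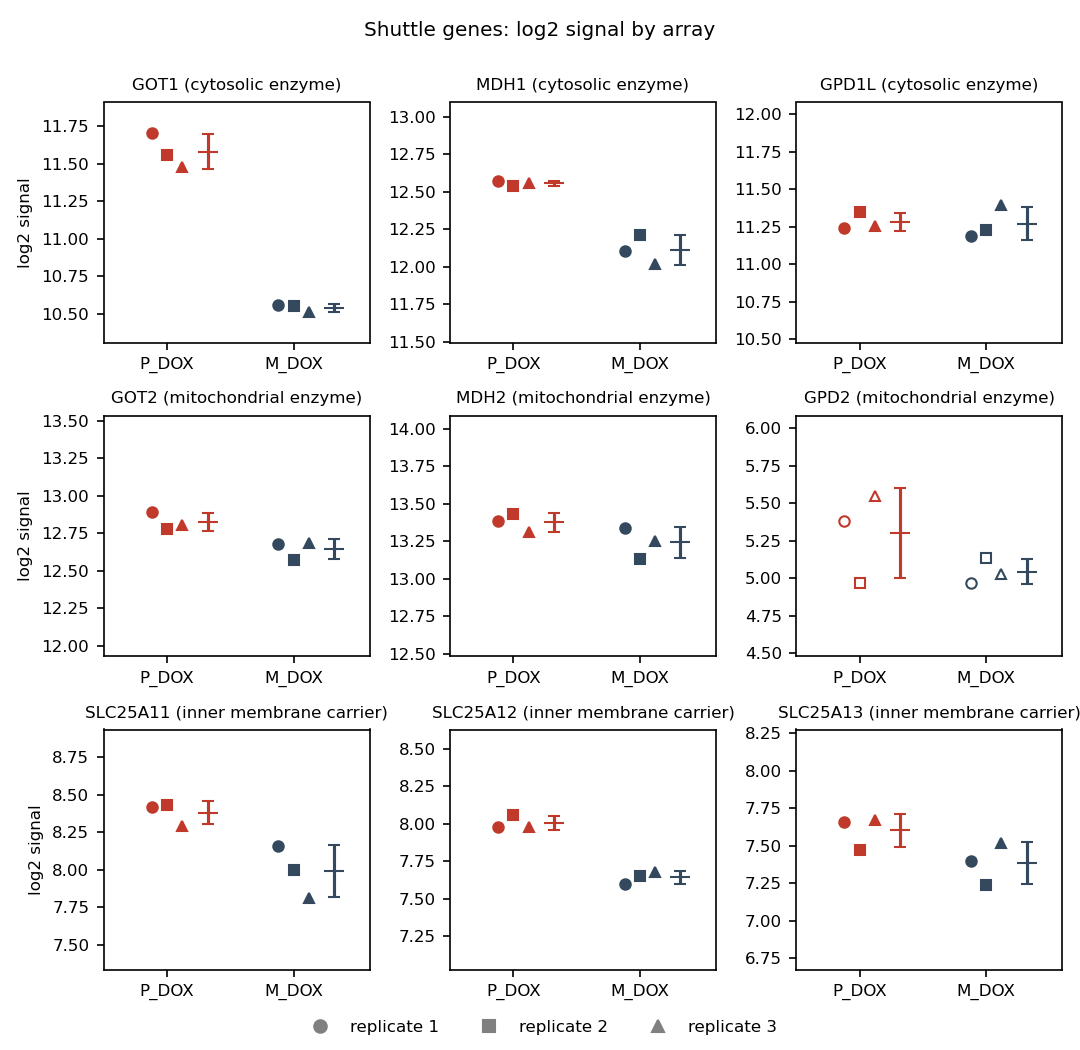
Log2 signal (vertical axis, each panel spanning the same range) of 9 shuttle genes in the 3 P_DOX and 3 M_DOX arrays, with marker shapes for replicates and bars for mean ± SD. Open symbols mark GPD2, which failed the detection filter. GOT1 shows the widest gap, at 11.58 in P_DOX and 10.54 in M_DOX, and GPD1L overlaps.

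**Figure D2:**
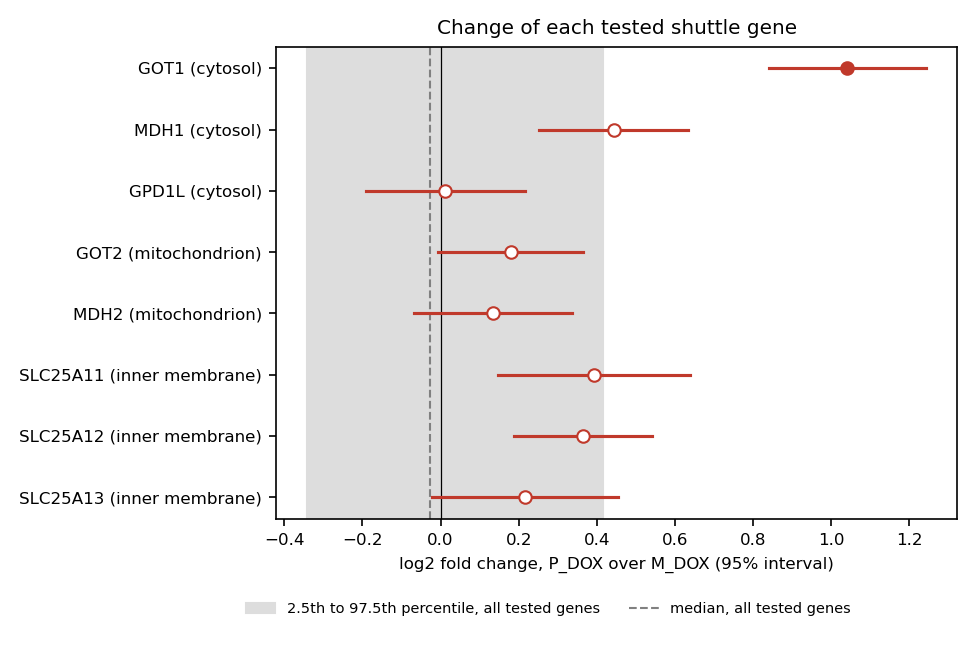
Log2 fold change of P_DOX over M_DOX (horizontal axis) with 95% intervals for the 8 tested members. Filled points passed at an adjusted p under 0.05. The grey band spans the middle 95% of all 9841 genes, -0.34 to 0.42, and the dashed line is their median. GOT1 and MDH1 lie beyond the band.

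The isoenzymes were then set against each other within each array, asking whether the cytosolic and the mitochondrial form changed unequally. The log2 ratio of GOT1 over GOT2 was -1.19, -1.22 and -1.33 in P_DOX, against -2.12, -2.02 and -2.18 in M_DOX. The ratio was higher in 3 of 3 P_DOX arrays than in any M_DOX array, with a difference of 0.86 (exact two-sided permutation p = 0.1, adjusted p = 0.15 over 3 pairs). With 3 arrays against 3, 0.1 is the smallest p such a test can give, so no pair could pass. For MDH1 over MDH2 the ratio was -0.81, -0.90 and -0.75 in P_DOX, against -1.24, -0.92 and -1.23 in M_DOX, a difference of 0.31 (exact permutation p = 0.1, adjusted p = 0.15). The groups did not overlap here either, but M_DOX replicate 2 nearly reached them: taken by replicate number, the differences were 0.42, 0.023 and 0.48, where those of the aminotransferases were 0.94, 0.80 and 0.85. The ratio of the paralogous carriers, SLC25A13 over SLC25A12, was -0.32, -0.59 and -0.31 in P_DOX, against -0.20, -0.41 and -0.16 in M_DOX. These overlapped, with a difference of -0.15 (exact permutation p = 0.3, adjusted p = 0.3). By replicate number the ratio was lower in P_DOX in 3 of 3 pairs, by differences of -0.13, -0.17 and -0.14. Without P_DOX replicate 2 the difference between the group means was -0.057, and without M_DOX replicate 2 it was -0.23. Probes differ in how brightly they bind, so the ratios show unequal change and not which form is the more abundant. The glycerol 3-phosphate dehydrogenases were not set against each other, since GPD2 was not above background in M_DOX.

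**Figure D3:**
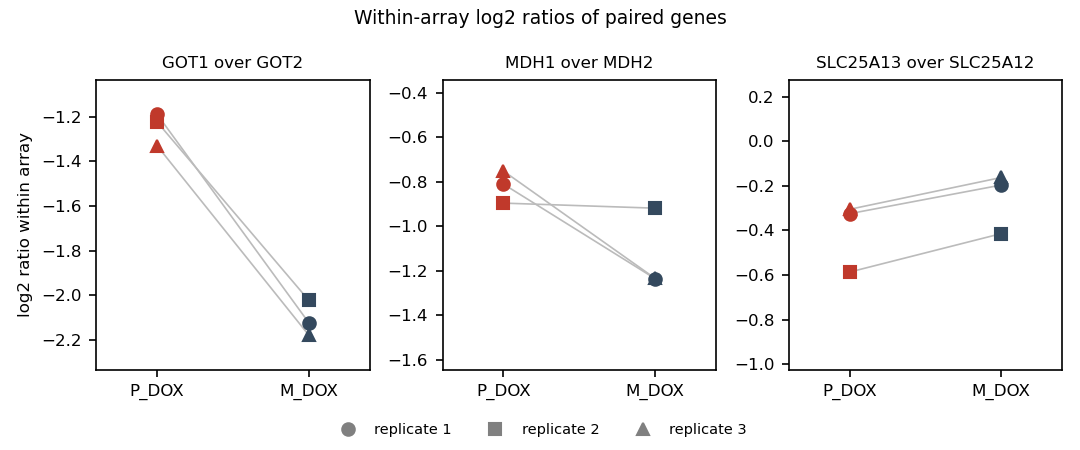
Log2 ratio within each array (vertical axis) for GOT1 over GOT2, MDH1 over MDH2 and SLC25A13 over SLC25A12 in P_DOX and M_DOX, each panel spanning the same range. Grey lines join arrays of the same replicate number. The aminotransferase ratio differs by 0.86, and the malate dehydrogenase ratio of replicate 2 by 0.023.

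Promoter windows from RefSeq, on GRCh38.p14, are shown for both isoenzyme pairs so that the cytosolic form can be set beside the mitochondrial one. Each runs from 250 bases before to 50 after the annotated start, 5′ to 3′ on the gene's strand. Capitals mark CCAAT or its complement ATTGG, and the nuclear receptor hexamer AGGTCA or its complement TGACCT. GOT1 lies at chr10:99430575-99430874, minus strand, GOT2 at chr16:58734267-58734566, minus strand, MDH1 at chr2:63588713-63589012, plus strand (the first of 2 windows), and MDH2 at chr7:76047856-76048155, plus strand.
GOT1: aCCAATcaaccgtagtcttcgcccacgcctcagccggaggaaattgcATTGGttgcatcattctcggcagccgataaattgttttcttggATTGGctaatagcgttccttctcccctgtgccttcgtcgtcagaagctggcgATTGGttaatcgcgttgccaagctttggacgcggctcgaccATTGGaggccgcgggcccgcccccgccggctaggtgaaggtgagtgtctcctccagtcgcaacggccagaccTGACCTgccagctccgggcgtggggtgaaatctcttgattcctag
GOT2: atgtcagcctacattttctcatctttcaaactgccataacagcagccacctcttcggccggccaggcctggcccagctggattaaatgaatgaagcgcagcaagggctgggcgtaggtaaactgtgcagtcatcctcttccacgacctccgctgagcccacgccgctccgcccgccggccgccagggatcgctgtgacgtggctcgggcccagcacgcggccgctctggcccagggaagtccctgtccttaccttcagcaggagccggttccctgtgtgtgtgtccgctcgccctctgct
MDH1: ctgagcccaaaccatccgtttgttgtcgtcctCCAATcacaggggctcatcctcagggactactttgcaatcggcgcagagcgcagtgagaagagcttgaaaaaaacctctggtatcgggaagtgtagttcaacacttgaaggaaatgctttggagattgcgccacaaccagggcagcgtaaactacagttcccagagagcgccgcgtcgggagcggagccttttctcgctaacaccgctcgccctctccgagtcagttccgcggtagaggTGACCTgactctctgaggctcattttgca
MDH2: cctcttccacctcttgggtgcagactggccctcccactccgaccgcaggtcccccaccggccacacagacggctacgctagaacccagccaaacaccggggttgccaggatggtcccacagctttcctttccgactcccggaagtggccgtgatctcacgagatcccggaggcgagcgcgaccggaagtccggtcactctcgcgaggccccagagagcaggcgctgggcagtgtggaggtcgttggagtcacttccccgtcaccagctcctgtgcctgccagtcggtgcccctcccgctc

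Windows were found for 9 members, 11 in all, and both strands were searched. The extended element of ERR receptors, TNAAGGTCA, was in 0 of the 11 and in 0.951% of 35114 windows of all genes. The cAMP response element TGACGTCA was in 0 of the 11 and in 1.85% of all. The shorter hexamer AGGTCA, which lies within the extended element, and CCAAT were added after the sequences had been read. AGGTCA was in the windows of GOT1, at position 6 from the start, and of MDH1, at position 22 of the first window. The same bases of MDH1 lay at -162 in its second window. The hexamer was in 13.8% of all windows and 10.1% of those of tested genes. CCAAT stood 5 times in the GOT1 window, at positions -249, -203, -160, -108 and -67, and 0 times in that of GOT2. At least 5 copies were in 0.359% of all windows and 0.542% of those of tested genes, and at least 1 in 34.6% and 35.7%. MDH1 held 1 copy, at -218, SLC25A13 1 at -51 and GPD1L 1 at -26, and MDH2 none. Positions are those of the leftmost base of a match as printed. These matches are descriptions of letters and were not tested against the changes.

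A loose pattern for the core of the NRF1 motif was searched: GCGC, any 2 bases, GCGC. It was found in the carriers SLC25A11 and SLC25A12, as 2 overlapping copies each, and in no other member. The 2 free bases were CT and CC in SLC25A11 and GC in both copies of SLC25A12. Whether NRF1 binds these letters was not tested. The pattern was in 8.32% of all windows and in 14.5% of the 11805 windows of tested genes, and at least 2 copies were in 1.70% and 3.10%. The 60 bases before each start are shown with the copies in capitals, at chr17:4940047-4940106, minus strand, for SLC25A11 and at chr2:171894245-171894304, minus strand, for SLC25A12. In SLC25A12 the copies are part of a run of alternating G and C.
SLC25A11: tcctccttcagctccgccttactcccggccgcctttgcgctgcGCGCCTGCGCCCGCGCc
SLC25A12: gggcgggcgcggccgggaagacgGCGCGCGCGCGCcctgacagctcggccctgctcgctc

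Other genes that meet the shuttles were read from 5 lists. The lists were chosen with earlier results of these data known, so their counts and medians are description only. Among genes that make or use cytosolic NADH, 1 of 6 tested was called higher and 0 lower, with a median log2 change of 0.017. Of all tested genes 0.437% were called higher and 0.102% lower. The called gene was LDHB, the heart-type subunit of lactate dehydrogenase, which had 10.57, 10.51 and 10.52 in P_DOX, against 10.09, 9.92 and 10.03 in M_DOX. Its log2 fold change was 0.52 (SE 0.0813, adjusted p = 0.0438), and it lost the call whichever single array was left out (adjusted p from 0.0873 to 0.201) and without a detection filter (adjusted p = 0.0575). LDHA, the muscle-type subunit, was at -0.019 (adjusted p = 0.932). PHGDH, the lowest of the 6 tested, was at -0.50 with overlapping groups (adjusted p = 0.237). Both values are given outside the naming rule, that of LDHA for comparison with LDHB.

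Dehydrogenases that, like GPD2, feed ubiquinone had a median of 0.30 over 7 tested genes. Above 0 were 7 of 7, against 43.4% of all tested genes, and 1 was called higher and 0 lower, against 0.437% and 0.102%. The 7 are not separate enzymes: SDHA, SDHC and SDHD encode subunits of 1 enzyme, and the median is the value of SDHD. DHODH, at 0.039, and SQOR, at 0.10, lay near background, detected on 4 and 3 of 6 arrays. With the replicate number as a block 2 were called higher, where 1.35% of all tested genes were. Of the shuttle members 1 was called with the block, again GOT1 (adjusted p = 0.0126). ETFDH, which passes electrons from fatty acid and amino acid oxidation to ubiquinone, averaged 10.06 ± 0.055 in P_DOX and 9.51 ± 0.064 in M_DOX (SD, n = 3 each). It rose by 0.55 on the log2 scale (SE 0.0796, adjusted p = 0.0396), a call lost whichever single array was left out (adjusted p from 0.0636 to 0.164) and without a detection filter (adjusted p = 0.0524). The gene added by the block was SDHA, the flavoprotein of succinate dehydrogenase, at 0.44 (adjusted p = 0.076, and 0.0485 with the block). It was named after its values were seen.

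The other 3 lists had 0 genes called by limma, where 0.437% of all tested genes were called higher and 0.102% lower. They held 3 genes at an unadjusted p under 0.05, against 14.7% of all tested genes. Malate and dicarboxylate handling had a median of 0.054 over 8 tested. Its largest values were those of a pair of malic enzymes, ME1 of the cytosol at 0.46 (SE 0.0877, adjusted p = 0.0811) and ME3 of the mitochondrion at 0.42 (SE 0.142, adjusted p = 0.247), which turn malate into pyruvate and make NADPH. The other malic enzyme tested, ME2 of the mitochondrion, had a difference of 0.0040 for its brightest probe (adjusted p = 0.987) and 0.30 for a dimmer one (adjusted p = 0.456 over all probes), values given outside the naming rule. Aspartate and glutamate handling had a median of -0.071 over 7 tested, with 2 above 0. Here asparagine synthetase ASNS, which consumes aspartate, was at -0.33 (SE 0.222, adjusted p = 0.537), and the glutamate transporter SLC1A1 at -0.20 (SE 0.179, adjusted p = 0.653). The other tested probe of ASNS was at -0.0019. The argininosuccinate synthase ASS1, which also consumes aspartate and was named after its values were seen, was at 0.19 on its brightest probe and 0.52 on its other one, and neither passed over all probes (adjusted p = 0.38 and 0.189). Glycerol 3-phosphate supply and use had a median of -0.036 over 6 tested. The acyltransferases GPAT3 and GPAT4, which spend glycerol 3-phosphate on lipid synthesis, were at -0.31 (SE 0.0846, adjusted p = 0.167) and 0.23 (SE 0.114, adjusted p = 0.394).

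**Figure D4:**
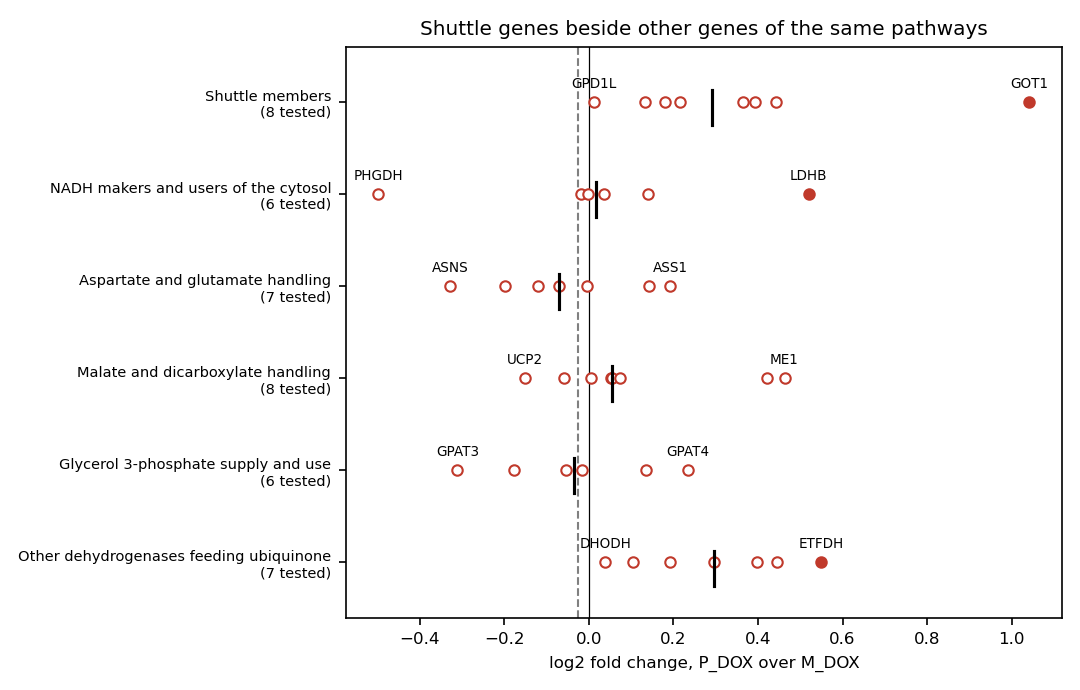
Log2 fold change of P_DOX over M_DOX (horizontal axis) for the 8 tested shuttle members and the tested genes of 5 lists of related genes. Filled points passed at an adjusted p under 0.05, short black bars are medians, the dashed line is the median of all genes, and the lowest and highest gene of each row are named. GOT1 stands at 1.04, with LDHB at 0.52 and ETFDH at 0.55.

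The 5 genes whose log2 signals most resembled those of GOT1 over the 6 arrays, by Pearson's r, were ECM1 (0.999), ENDOG (0.995), RNASET2 (0.994), RNF4BP (0.994) and SLCO1B3 (0.994). The 6 points share the arrays and the difference between the groups, which sets most of each r. ECM1, a secreted matrix protein, differed by 3.42, the mitochondrial nuclease ENDOG by 0.89, and RNF4BP, annotated as a transcribed pseudogene, by 0.61, and these were called (adjusted p = 0.000409, 0.029 and 0.0291). ECM1 lay near background in M_DOX, at a mean of 5.32. Its change was 2.53 on the deposited table and 2.96 as the mean of its probes, and it was called in all 15 other settings. ENDOG and RNF4BP lost the call whichever single array was left out (adjusted p from 0.0512 to 0.131 and from 0.0594 to 0.143). RNASET2, a lysosomal ribonuclease, was at 0.28 (adjusted p = 0.16). SLCO1B3, an organic anion transporter, was not above background on any M_DOX array. Its mean log2 signal in P_DOX, 5.45, also lay close to background, so no fold is given. It passed the detection filter through P_DOX alone, so its test is not used, and its r rests on M_DOX values below detection. Among the members GOT1 was closest to MDH1 (r = 0.969) and SLC25A12 (r = 0.966), and after removing the group means these were 0.266 and -0.23 over the same 6 arrays.

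Detected probes numbered 15437 to 16012 in P_DOX and 15029 to 15841 in M_DOX. ESRRA, the nuclear receptor that PGC1A partners, was at 0.50 (adjusted p = 0.0502, and 0.037 with the replicate block). It passed in 8 of 15 other settings, and in 0 with a single array left out (limma adjusted p from 0.0926 to 0.205). Of 7 markers of the line 6 were tested and 0 called by limma (0 at an unadjusted p under 0.05). Of 16 markers of other cell types 6 were tested and 0 called. At an unadjusted p under 0.05 were 2, LUM and CD14, against 14.7% of all tested genes. CD14, a leukocyte marker near background, was at -0.31 (limma adjusted p = 0.339). The fibroblast markers summed to 2174 to 2702 in P_DOX and 2252 to 2560 in M_DOX on the linear scale. Among them LUM was at 0.33 with groups that did not overlap (adjusted p = 0.19). COL1A1 was at -0.18 and COL1A2 at -0.030 on its brightest probe and 0.14 on its other one, all with overlapping groups. The part of these markers in the results was not tested.

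**Figure D5:**
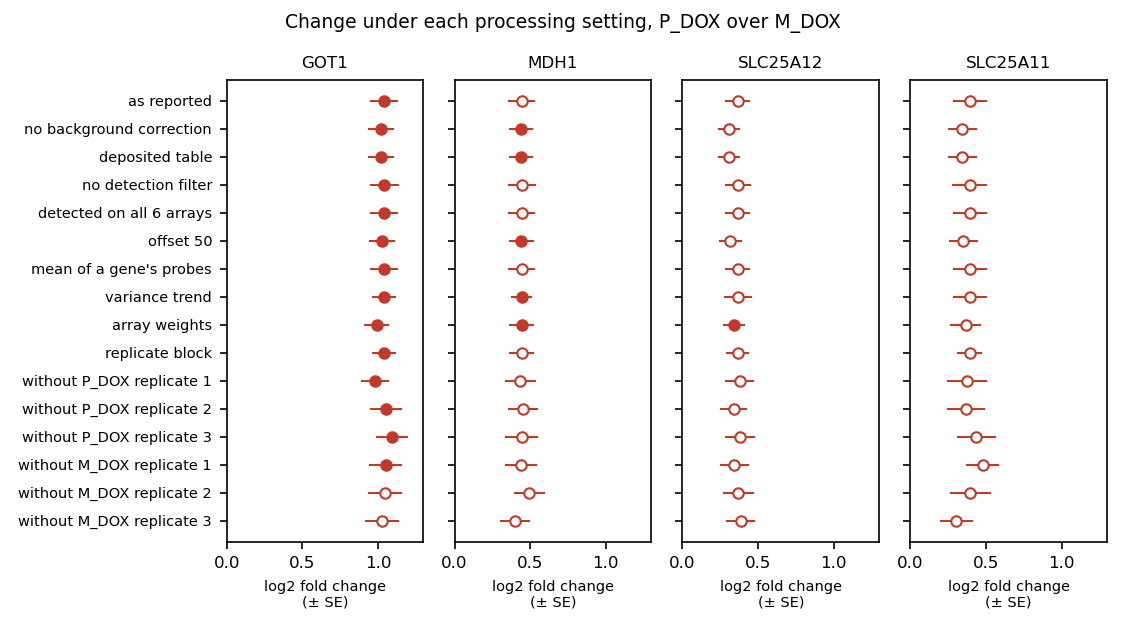
Log2 fold change of P_DOX over M_DOX with its SE (horizontal axis, starting at 0) for GOT1, MDH1, SLC25A12 and SLC25A11 as reported and under 15 other settings. Filled points passed at an adjusted p under 0.05. GOT1 passed in 13 of the 15, MDH1 in 5, SLC25A12 in 1 and SLC25A11 in 0, while the value of GOT1 lay between 0.98 and 1.09.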

How the data were processed

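The deposited table holds the authors' bead array intensity of 47231 probes on a linear scale, and a deposited p-value of detection for every probe, taken against the negative controls of its array. A second deposited table holds the authors' processed log2 values of 17925 probes. Per the submitters' processing notes lumi was used. Its version, the scanner software and a genome build were not given in the sources used here. The platform annotation named probes (13977 with 1 gene, 4 with several, 3944 not listed), and 13970 symbols were updated by Entrez number through RefSeq GRCh38.p14.

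Intensities were background-corrected by normexp with an offset of 16, then quantile-normalized on the log2 scale with neqc (limma 3.58.1, R 4.3.3). Probes detected on at least 3 of 6 arrays were kept, and the brightest stood for its gene. P_DOX was set against M_DOX by lmFit and eBayes of limma (two-sided) over 9841 genes. The fit was tested on simulated data. Same-numbered arrays deviated together (r = 0.45, 0.52 and 0.30 over genes), and arrays of different number did not (r from -0.42 to -0.066). Blocked values are therefore given for the members and where they change a call. The SEs and intervals printed are those of the fit without the block. Members and lists were chosen with earlier results of these data known. Named were all members, PPARGC1A, ESRRA, from each list the 2 called genes of largest change (or the 2 largest changes where none was called), and the 5 genes most like the member of lowest p. Neither slide nor scan date was analysed. The number of arrays limits the precision.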

Additional observations from a re-analysis of the deposited data

How the results depend on the processing

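Over 15 other settings GOT1 kept its direction (0.98 to 1.09) and lost its call in 2, without M_DOX replicate 2 or 3. Also above 0 in all 15 were MDH1 (0.40 to 0.49), SLC25A11 (0.30 to 0.48), SLC25A12 (0.31 to 0.38), SLC25A13 (0.14 to 0.28), GOT2 (0.14 to 0.20) and MDH2 (0.079 to 0.18). GPD1L changed sign, at -0.019 with array weights and from -0.029 to 0.074 with single arrays left out, as did PPARGC1A, at -0.19 and from -0.16 to 0.17. The members called higher numbered 2 on the deposited table, without background correction, with an offset of 50 and with a variance trend (GOT1 and MDH1), 3 with array weights (and SLC25A12), 1 with the replicate block, and 0 to 1 with single arrays left out. Members called lower numbered 0 throughout. Of all genes 53 were called. The count was 81 on the deposited table, 81 without background correction, 80 with an offset of 50, 30 without a detection filter, 100 with a variance trend, 207 with array weights, 177 with the replicate block, and 1 to 9 with single arrays left out. The cause of these shifts was not tested. The ratio differences moved by less than their spread in every setting run, though that of SLC25A13 over SLC25A12 (-0.15) ran from -0.23 to -0.057 with single arrays left out. Signals near background limit GPD2 and PPARGC1A.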
